A study of Mus musculus with 6 samples.

Results

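Bulk RNA sequencing compared primary muscle stem cells, taken from wild-type mice and kept in culture for 2 days with 11,12-EET or without it, in 3 libraries a group. The genes described here are 33 rows of the deposited count table, out of 55494, taken by name: ATF4, its partner factors and stress regulators, the enzymes that make serine and carry its carbon, the amino acid transporters that ATF4 controls, and the enzymes of asparagine, proline, transamination and transsulfuration. Muscle stem cells, or satellite cells, are the Pax7-positive cells that rebuild adult muscle fibres, and 11,12-EET (an epoxyeicosatrienoic acid) is a lipid mediator made from arachidonic acid by cytochrome P450 enzymes. The control group is given as cells cultured without EET, and the sources used here give no dose, vehicle or age of the mice. No label states whether the libraries of a group were separate mice or cultures, so the p-values cover only the spread between libraries.

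ATF4 is the transcription factor at the end of the integrated stress response. When a kinase phosphorylates the translation factor eIF2, most protein synthesis slows while the Atf4 mRNA is translated more, and ATF4, paired with C/EBP proteins, then raises transcription of genes for amino acid uptake, serine synthesis and mitochondrial folate metabolism. ATF4 activity is therefore set largely after transcription, and its mRNA level is only one part of it. In muscle stem cells, eIF2 phosphorylation is known for its part in holding the cells in quiescence.

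As counted, the 3 genes of serine synthesis rose with EET, whereas 6 of the 8 transporter and receptor genes fell. Once a trend with mRNA length, described below, was removed, the calls of Psph, Slc7a5 and Slc7a11 remained among these genes and those of Phgdh, Psat1, Slc7a1, Slc38a2, Vldlr and Slc1a4 were lost. Atf4 itself rose 1.54-fold and Psph 1.69-fold, while Slc7a11 fell to 0.607 of its control level; Atf4 was also called with the trend removed. Of the 33 genes, all of which passed the filter on low counts, 10 were higher (30.3%), 8 were lower (24.2%) and 15 were not called, where a call is an edgeR quasi-likelihood adjusted p under 0.05. Among all 16097 genes tested, 24.6% were higher and 23.3% were lower, so the shares among these genes were near the background. Leaving out 1 library moved the count of higher genes to 6 (without control 2, control 3 or EET 2) and that of lower genes to 5 (without EET 2). The median log2 fold change (EET minus control) was 0.11 for the 33 genes and 0.0050 for all genes. With library totals in place of TMM factors as the scaling, 6 of the 33 were higher and 8 lower, which moved the higher share of the calls from 55.6% to 42.9%, where that of all genes moved from 51.4% to 44%. The 4 that lost their call there were Ppp1r15a, Psat1, Mthfd2 and Asns (edgeR adjusted p = 0.0693 to 0.23). The 3 EET libraries lay wholly above the 3 controls for 13 of the 33 genes (39.4%, against 29.6% of all genes) and wholly below them for 7 (21.2%, against 28% of all genes). The other 13 had overlapping groups.

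**Figure D1:**
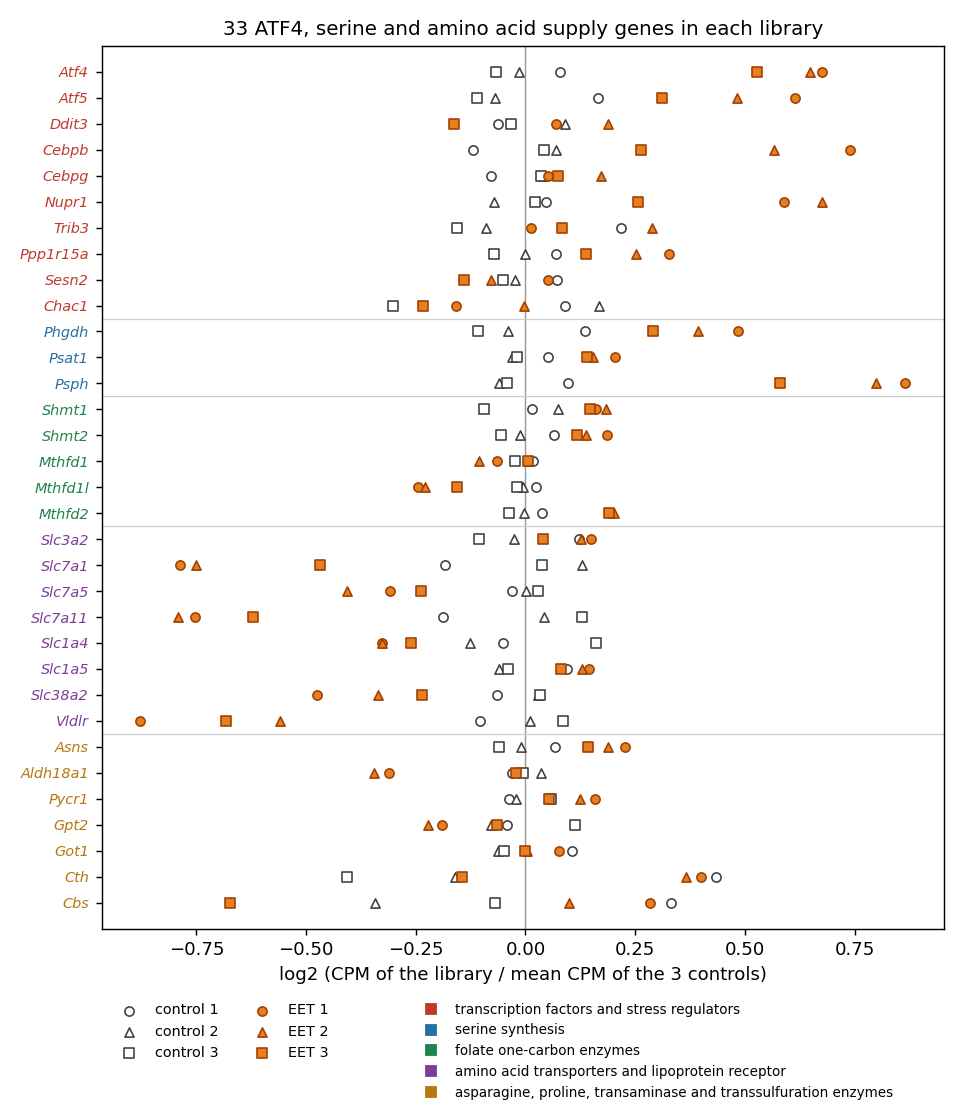
Level of each of the 33 genes in each library, as log2 of the library's CPM over the mean CPM of the 3 controls; open symbols are controls, filled symbols EET libraries, and the marker shape is the replicate number. The EET libraries of Atf4, Psph and Cebpb stand to the right of the controls, those of Slc7a1, Slc7a11 and Vldlr to the left.

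Direction followed mRNA length. Across libraries, the deviation from the mean of all 6 changed by 0.115, 0.219 and 0.225 log2 units per doubling of mRNA length in control 1, 2 and 3, and by −0.249, −0.206 and −0.104 in EET 1, 2 and 3. The genes called higher had mRNAs of 829 to 2809 bp (median 1854.5 bp) and the genes called lower had mRNAs of 3517 to 9223 bp (median 4293 bp). The median log2 fold change of all protein-coding genes was 0.48 for mRNAs from 1000 bp to under 2000 bp, where the 7 members had a median of 0.47. It was −0.55 for mRNAs of 6000 bp and over, where the 4 members had −0.68. Within their length class, 24 of the 33 genes lay between the lower and the upper quartile of all genes. The 6 below were Ddit3, Nupr1, Chac1, Slc7a5, Slc1a4 and Cth, and the 3 above were Cebpg, Psph and Cbs.

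For that reason the genes are also described from a second fit, from which the trend with length and GC content was taken out library by library, so that a gene is set against genes of like length and composition. In that fit 4 of the 33 genes were higher (12.1%: Atf4, Psph, Ppp1r15a and Cebpg), against 16.3% of all genes. A further 6 were lower (18.2%: Ddit3, Nupr1, Chac1, Slc7a5, Slc7a11 and Got1), against 15.2% of all genes, and 23 were not called. The median was −0.081, against −0.0068 for all genes. Atf4, Psph and Ppp1r15a were higher in both fits, Slc7a5 and Slc7a11 were lower in both, and Nupr1 was called in opposite directions. A trend-removed value is no change of level in CPM: a gene can be called there while its CPM hardly moved. Which of the fits comes nearer to the RNA content of the cells was not tested.

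**Figure D2:**
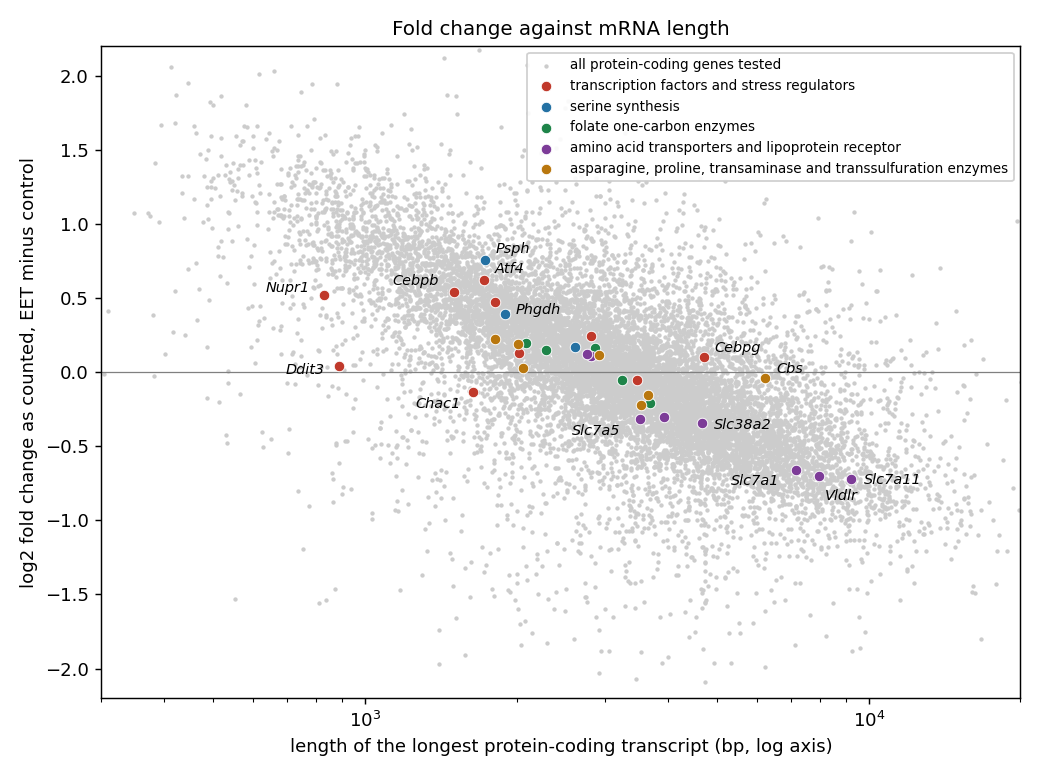
Log2 fold change as counted against the length of the longest protein-coding transcript (log axis), 1 point a gene; grey points are all protein-coding genes tested and coloured points the 33 genes by role. The grey cloud descends from left to right, from a median of 0.97 under 1000 bp to −0.55 at 6000 bp and over, and most coloured points lie in it, with Ddit3, Nupr1 and Chac1 below.

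The libraries held 30371291 to 37243882 counts each. Even numbers outweighed odd ones among low counts (61.3 to 62.1% of counts from 11 to 50 in the controls, 65 to 65.6% with EET), as would be so if the mates of a read pair were counted apart; how reads were counted was not tested, and with counts divided by 2 the calls of the 33 genes were 10 higher and 8 lower. The labelled cell type was checked against 12 markers of satellite cells and myoblasts. Their summed level was 3510 to 3800 CPM in the controls and 3990 to 4060 CPM with EET. Of these markers, 4 were higher and 2 lower, or 1 and 1 with the trend removed. Single means went both ways. Des and Myod1 had 594 and 977 CPM in the controls and 864 and 1160 CPM with EET. Pax7, Megf10 and Itga7 had 114, 88.4 and 957 CPM in the controls and 83.5, 56.7 and 889 CPM with EET. Among all genes, 24.6% were higher and 23.3% lower, or 16.3% and 15.2% with the trend removed. Markers of other cells were present too. The 10 endothelial markers summed to 309 to 325 CPM in the controls and 184 to 202 CPM with EET (0 higher, 7 lower; 0 and 8 with the trend removed), and the 8 Schwann cell markers to 470 to 480 and 348 to 389 CPM (1 higher, 6 lower; 0 and 5). Of the endothelial markers, Emcn, Esam and Cldn5 had means of 13.3, 13.2 and 10.4 CPM in the controls and 13.4, 13.6 and 11.1 CPM with EET. The 10 fibroblast and fibro-adipogenic markers summed to 808 to 836 and 745 to 761 CPM (0 higher, 2 lower; 1 and 4 with the trend removed). The 10 macrophage and leukocyte markers summed to 319 to 349 and 206 to 398 CPM (0 higher, 2 lower; 1 and 6), and the 8 pericyte and smooth muscle markers, among them Des of the satellite cell list, to 758 to 835 and 905 to 1060 CPM (2 higher, 5 lower; 1 and 3). In this last sum Des alone had means of 594 CPM in the controls and 864 CPM with EET. Of its other markers only Kcnj8 had a higher mean with EET (1.37 and 2.23 CPM). Pdgfrb, Cspg4 and Notch3 had 92.5, 48.4 and 21.8 CPM in the controls and 59.5, 27.5 and 12.9 CPM with EET. No listed marker was at 0 in all 6 libraries, and the part of other cells in the values below was not tested. In a bulk sample, fewer cells of a type and less RNA per cell cannot be told apart.

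The promoters were read for the C/EBP-ATF response element, the composite site that ATF4 and C/EBP dimers bind, searched as TGATGNAA on both strands. RefSeq promoter windows (GRCm38.p6, 300 bases around the start) were found for 30 of the 33 genes; Slc7a5, Slc1a5 and Cth have no entry. The element was present in 9 of the 30 (30%), against 3.97% of all 32851 promoter windows and 4.51% of 27025 genes. The list holds genes known as ATF4 targets, some of them through this element, so the higher share describes the list and is no result of the treatment. The palindromic cAMP response element TGACGTCA was present in 1 of the 30, Ppp1r15a (3.33%, against 1.79% of windows and 2.03% of genes). Windows of 5 genes are printed because they show how differently genes with the element moved; the element is in capitals, as TTGCATCA where it lies on the reverse strand. Slc7a11 (chr3:50443564-50443863, minus strand) fell, Asns (chr6:7693160-7693459, minus strand) and Nupr1 (chr7:126625421-126625720, minus strand) rose as counted, and Chac1 (chr2:119350992-119351291, plus strand) and Got1 (chr19:43524556-43524855, minus strand) were called lower only with the trend removed.
Slc7a11: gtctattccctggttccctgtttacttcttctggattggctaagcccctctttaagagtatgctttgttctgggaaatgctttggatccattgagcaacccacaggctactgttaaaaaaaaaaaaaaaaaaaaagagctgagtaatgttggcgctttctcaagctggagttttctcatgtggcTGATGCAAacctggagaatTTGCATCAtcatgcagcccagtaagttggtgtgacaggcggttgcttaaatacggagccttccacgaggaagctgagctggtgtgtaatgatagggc
Asns: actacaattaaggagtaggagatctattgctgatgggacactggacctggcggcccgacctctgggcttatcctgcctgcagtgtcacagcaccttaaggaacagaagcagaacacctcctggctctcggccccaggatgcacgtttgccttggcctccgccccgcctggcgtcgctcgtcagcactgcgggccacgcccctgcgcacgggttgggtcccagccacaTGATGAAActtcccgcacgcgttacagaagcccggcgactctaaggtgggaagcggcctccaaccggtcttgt
Nupr1: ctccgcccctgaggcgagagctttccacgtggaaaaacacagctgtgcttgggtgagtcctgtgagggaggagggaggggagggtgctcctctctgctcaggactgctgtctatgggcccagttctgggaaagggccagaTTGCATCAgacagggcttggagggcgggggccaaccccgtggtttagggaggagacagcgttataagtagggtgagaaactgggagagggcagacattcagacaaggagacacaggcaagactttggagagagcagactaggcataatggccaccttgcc
Chac1: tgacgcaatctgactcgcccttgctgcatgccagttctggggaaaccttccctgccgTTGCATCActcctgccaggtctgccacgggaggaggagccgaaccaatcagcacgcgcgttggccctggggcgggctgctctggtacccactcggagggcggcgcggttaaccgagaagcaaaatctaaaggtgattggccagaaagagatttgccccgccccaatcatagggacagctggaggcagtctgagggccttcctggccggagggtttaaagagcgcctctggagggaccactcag
Got1: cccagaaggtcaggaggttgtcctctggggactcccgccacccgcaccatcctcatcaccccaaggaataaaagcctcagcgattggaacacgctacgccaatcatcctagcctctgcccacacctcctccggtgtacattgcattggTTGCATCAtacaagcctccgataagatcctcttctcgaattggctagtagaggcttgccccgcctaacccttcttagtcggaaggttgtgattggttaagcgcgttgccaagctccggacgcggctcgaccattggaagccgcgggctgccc
Slc7a11 carried the element in a pair, at −66 to −59 and, reversed, at −47 to −40 from the start. Asns carried it at −23 to −16, Got1 at −102 to −95, Nupr1 at −110 to −103 and Chac1 at −193 to −186. The others with it were Trib3, Slc1a4, Vldlr and Pycr1. The shares of all genes to read the next counts against are 24.6% higher and 23.3% lower, and 16.3% and 15.2% with the trend removed. Of the 9 genes with the element, 2 were higher, 3 lower and 4 not called, at a median of 0.03. With the trend removed the counts were 0 higher and 4 lower. Of the 21 without it in their promoter windows, 8 were higher, 4 lower and 9 not called, at a median of 0.11. With the trend removed they were 4 higher and 1 lower. Sequence outside the windows was not searched for the element. The genes with it had shorter mRNAs (median 2058 bp, against 2813 bp), and the difference between these sets was not tested.

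Among the transcription factors and stress regulators, 5 of 10 rose and 0 fell (24.6% and 23.3% of all genes), and with the trend removed 3 were higher and 3 lower (16.3% and 15.2% of all genes). Atf4 (chr15:80255184-80257541, plus strand) was measured at 405, 380 and 366 CPM in the controls and at 613, 602 and 553 CPM with EET. All 3 EET libraries were well above all 3 controls. Its mean went from 384 ± 20 to 589 ± 32.2 CPM (SD, n = 3 each), a log2 fold change of 0.62 ± 0.07 (SE; edgeR adjusted p = 6.58e-06), or 0.21 ± 0.04 with the trend removed (adjusted p = 7.13e-04). Atf5, a bZIP factor whose mRNA is under a like translational control, was at 97.7, 83.1 and 80.7 CPM in the controls and at 133, 122 and 108 CPM with EET. These groups were also apart, and Atf5 rose by 0.47 ± 0.09 (edgeR adjusted p = 5.44e-04), but its value with the trend removed was 0.03 ± 0.05 (adjusted p = 0.725). The log2 ratio of Atf5 to Atf4 within a library differed by −0.14 as counted and by −0.18 with the trend removed. The groups were apart in both (exact permutation p = 0.1 each, the smallest possible here).

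The C/EBP partners of ATF4 moved unequally. Cebpb, which encodes C/EBP beta, was at 33.2, 37.9 and 37.2 CPM in the controls and at 60.3, 53.4 and 43.3 CPM with EET. The lowest EET library was above the highest control, though the EET libraries were spread widely, and Cebpb rose by 0.54 ± 0.11 (edgeR adjusted p = 9.09e-04). Its value with the trend removed was −0.11 ± 0.10 (adjusted p = 0.421). Cebpg, which encodes C/EBP gamma, a dimer partner without an activation domain of its own, was at 56.6, 61.5 and 61.3 CPM in the controls and at 62, 67.4 and 63 CPM with EET. Its EET libraries were just above the controls, and it was not called as counted (0.10 ± 0.07, adjusted p = 0.296). Its mRNA of 4709 bp is long for the group, and against genes of like length it was called higher, at 0.36 ± 0.06 (edgeR adjusted p = 1.39e-04).

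Ppp1r15a encodes GADD34, the subunit that leads a phosphatase to eIF2 and so closes the feedback loop of the response. It was at 83.9, 79.9 and 76.1 CPM in the controls and at 100.3, 95.2 and 88 CPM with EET, groups that were apart by a small margin. It rose by 0.24 ± 0.07 (edgeR adjusted p = 0.0145), or 0.17 ± 0.05 with the trend removed (adjusted p = 0.0237). Both calls were lost when control 2, control 3, EET 1 or EET 2 was left out, with adjusted p values of 0.0529 to 0.0876 as counted and of 0.0626 to 0.109 with the trend removed.

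Ddit3, Chac1, Trib3 and Sesn2 were not called as counted. Ddit3, which encodes the pro-apoptotic factor CHOP, was at 11.2, 12.5 and 11.5 CPM in the controls and at 12.3, 13.3 and 10.5 CPM with EET. The groups overlapped, and the log2 fold change was 0.04 ± 0.12 (edgeR adjusted p = 0.825), an interval of −0.21 to 0.28 at 2 SE. With its mRNA of 890 bp it was set against short genes that were mostly higher, and was called lower there, at −0.88 ± 0.11 (adjusted p = 7.88e-06). Chac1, which encodes an enzyme that breaks down glutathione, was at 8.09, 8.55 and 6.17 CPM in the controls and at 6.82, 7.58 and 6.46 CPM with EET. Its groups overlapped as well (−0.13 ± 0.15, adjusted p = 0.52), and with the trend removed it was called lower, at −0.60 ± 0.15 (edgeR adjusted p = 0.00395).

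Nupr1 was the gene whose call turned. This small stress-induced chromatin protein gene was at 7.17, 6.62 and 7.06 CPM in the controls and at 10.5, 11.1 and 8.3 CPM with EET. The EET libraries were above the controls in CPM, and Nupr1 rose by 0.52 ± 0.14 (edgeR adjusted p = 0.00697). Its mRNA of 829 bp was the shortest of the 33, and genes under 1000 bp had a median log2 fold change of 0.97. With the trend removed Nupr1 was called lower, at −0.44 ± 0.12 (adjusted p = 0.0106), a call that was lost without control 3 (adjusted p = 0.0536). Trib3, a pseudokinase induced by ATF4 and CHOP, was at 7.76 to 10.1 CPM in the controls and 8.73 to 10.6 CPM with EET. Sesn2, which encodes a leucine sensor that restrains mTORC1, was at 34.7 to 37.7 and 32.6 to 37.2 CPM. Both overlapped between the groups and neither was called in either fit (0.13 and −0.05 as counted, −0.19 and −0.0054 with the trend removed).

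Serine is made from a glycolytic intermediate in a branch of 3 enzymes. All 3 of their genes rose as counted, where 24.6% of all genes were higher. Once the trend was removed 1 was called higher, where 16.3% of all genes were. Phgdh, the dehydrogenase of the first step, was at 397, 351 and 335 CPM in the controls and at 505, 474 and 442 CPM with EET. Psat1, the transaminase of the middle step, was at 449, 424 and 428 CPM in the controls and at 499.5, 483 and 478 CPM with EET. Psph (chr5:129765558-129787449, minus strand), the phosphatase of the last step, was at 26.5, 23.7 and 24 CPM in the controls and at 45.1, 43.1 and 37 CPM with EET. The groups were apart for each of the 3 genes, where 29.6% of all genes had the EET libraries wholly above the controls. In fold they were by far the furthest apart for Psph. Psph rose by 0.75 ± 0.10 (edgeR adjusted p = 1.74e-05), and it was also called higher with the trend removed, at 0.34 ± 0.07 (adjusted p = 9.86e-04). Phgdh rose by 0.39 ± 0.08 (edgeR adjusted p = 6.54e-04), but with the trend removed it was at 0.03 ± 0.04 (adjusted p = 0.64). Psat1 rose by 0.17 ± 0.06 (edgeR adjusted p = 0.0391), or 0.07 ± 0.04 uncalled with the trend removed (adjusted p = 0.252). The call of Psat1 was also lost without control 2, control 3, EET 1 or EET 2 (adjusted p = 0.0893 to 0.167). Phgdh has a pseudogene row of its own in the table, Phgdh-ps1, that could share its reads.

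The ratio of Psph to Phgdh within a library does not depend on the scaling. Its log2 value was −3.90, −3.89 and −3.80 in the controls and −3.49, −3.46 and −3.58 with EET. The groups did not overlap, and the difference was 0.36 (exact two-sided permutation p = 0.1, the smallest that 6 libraries in 2 groups can give; 0.12 adjusted over the 6 ratios computed). With the trend removed it was 0.31.

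Serine then gives its carbon to folate, in mitochondria through Shmt2, Mthfd2 and Mthfd1l and in the cytosol through Shmt1 and Mthfd1. Of these 5 genes 1 rose and 1 fell (24.6% and 23.3% of all genes), and 3 were not called. In the trend-removed fit 0 of the 5 were called, where all genes gave 16.3% higher and 15.2% lower. Mthfd2, the mitochondrial dehydrogenase and cyclohydrolase known as an ATF4 target, was at 138, 134 and 131 CPM in the controls and at 153, 154 and 153 CPM with EET. The EET libraries were close together and all above the controls. Mthfd2 rose by 0.20 ± 0.06 (edgeR adjusted p = 0.0181) and was at −0.06 ± 0.05 with the trend removed (adjusted p = 0.326); its call as counted was lost without control 2, control 3 or EET 2 (adjusted p = 0.0593 to 0.0918). Mthfd1l, which releases formate from mitochondria, was at 206, 201 and 200 CPM in the controls and at 171, 173 and 181 CPM with EET. It fell by 0.21 on the log2 scale (SE 0.06, edgeR adjusted p = 0.0121), with no overlap between the groups, and was at −0.09 with the trend removed (adjusted p = 0.128). Without EET 2 that call was lost (adjusted p = 0.0562).

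Shmt1 and Shmt2, the cytosolic and mitochondrial serine hydroxymethyltransferases, had EET libraries above all controls yet were not called. Shmt2 was at 381 to 414 CPM in the controls and 430 to 451 CPM with EET (0.15 ± 0.06, edgeR adjusted p = 0.0707), and Shmt1 at 71.5 to 80.4 and 84.6 to 86.6 CPM (0.16 ± 0.07, adjusted p = 0.0702). Mthfd1, the cytosolic enzyme of the same steps, was at 230 to 236 and 217 to 234 CPM, with overlap. With the trend removed Shmt2 was at −0.08, Shmt1 at 0.12 and Mthfd1 at −0.02. The log2 ratio of Shmt2 to Shmt1 was 2.38 ± 0.08 in the controls and 2.36 ± 0.04 with EET (exact permutation p = 0.8). With the trend removed this ratio differed by −0.20, with the groups apart (exact permutation p = 0.1). The ratios of Mthfd2 to Mthfd1l and of Mthfd2 to Mthfd1 were higher by 0.41 and 0.25 with no overlap (exact permutation p = 0.1 each). With the trend removed these 2 differed by 0.03 and −0.04, where the groups overlapped.

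Of the 7 amino acid transporter genes and Vldlr, a lipoprotein receptor gene that ATF4 also induces, 6 fell and 0 rose, where 23.3% of all genes were lower. Their median mRNA length was 4293 bp, and all genes from 4000 to under 6000 bp had a median log2 fold change of −0.28. With the trend removed 2 of the 8 were lower, where 15.2% of all genes were. Slc7a11 encodes the light chain of the cystine and glutamate exchanger that feeds glutathione synthesis. It was at 62.8, 73.6 and 78.2 CPM in the controls and at 42.5, 41.3 and 46.5 CPM with EET, so that every EET library was below every control. It fell from 71.5 ± 7.93 to 43.4 ± 2.75 CPM (log2 fold change −0.72 ± 0.09, edgeR adjusted p = 1.71e-05). Its mRNA of 9223 bp was the longest of the 33, and with the trend removed the value shrank to −0.17 ± 0.06, just past the threshold (adjusted p = 0.0471). That second call was lost without control 2, control 3, EET 2 or EET 3 (adjusted p = 0.0597 to 0.225).

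Slc7a5 encodes LAT1, the transporter of large neutral amino acids such as leucine. It was at 378, 387 and 394 CPM in the controls and at 312, 291 and 327 CPM with EET, without overlap. It fell from 386 ± 8.11 to 310 ± 18 CPM (−0.32 ± 0.07, edgeR adjusted p = 0.00103). Its mRNA of 3517 bp lies where the median of all genes was −0.07, and the value with the trend removed was −0.24 ± 0.05 (adjusted p = 4.68e-04). Slc3a2, the heavy chain that carries both of these light chains to the membrane, was at 277 to 325 CPM in the controls and 307 to 331 CPM with EET and was not called (0.11 ± 0.07, edgeR adjusted p = 0.247; 0.04 with the trend removed). The log2 ratio of Slc7a11 to Slc7a5 was lower by 0.40 as counted (exact permutation p = 0.1) and was 0.07 higher with the trend removed, where the groups overlapped.

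Slc7a1, the carrier of arginine and lysine, was at 158, 196 and 184 CPM in the controls and at 104, 107 and 130 CPM with EET. Vldlr was at 10.5, 11.4 and 12 CPM in the controls and at 6.16, 7.68 and 7.05 CPM with EET. Slc38a2, the SNAT2 carrier of small neutral amino acids that cells induce when amino acids run short, was at 528, 564 and 566 CPM in the controls and at 397, 438 and 469 CPM with EET. For each of these 3 genes all EET libraries were below all controls, as was so for 28% of all genes. Slc7a1 fell by 0.66 on the log2 scale (SE 0.10, edgeR adjusted p = 5.77e-05), Vldlr by 0.70 (SE 0.13, adjusted p = 4.58e-04) and Slc38a2 by 0.35 (SE 0.07, adjusted p = 0.00104). Against genes of like length none of these 3 was called, at −0.10, −0.15 and −0.10 (edgeR adjusted p = 0.159, 0.386 and 0.0832). Slc1a4, a carrier of alanine, serine and cysteine, was at 13.5 to 16.5 CPM in the controls and 11.7 to 12.3 CPM with EET. It fell by 0.30 (SE 0.11, edgeR adjusted p = 0.0373), a call lost without control 3, EET 1 or EET 2 (adjusted p = 0.0885 to 0.197) and with the trend removed (−0.15, adjusted p = 0.312). Slc1a5, the ASCT2 glutamine carrier, overlapped between the groups at 180 to 200.4 and 198.5 to 207 CPM (0.12 as counted, 0.03 with the trend removed).

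**Figure D3:**
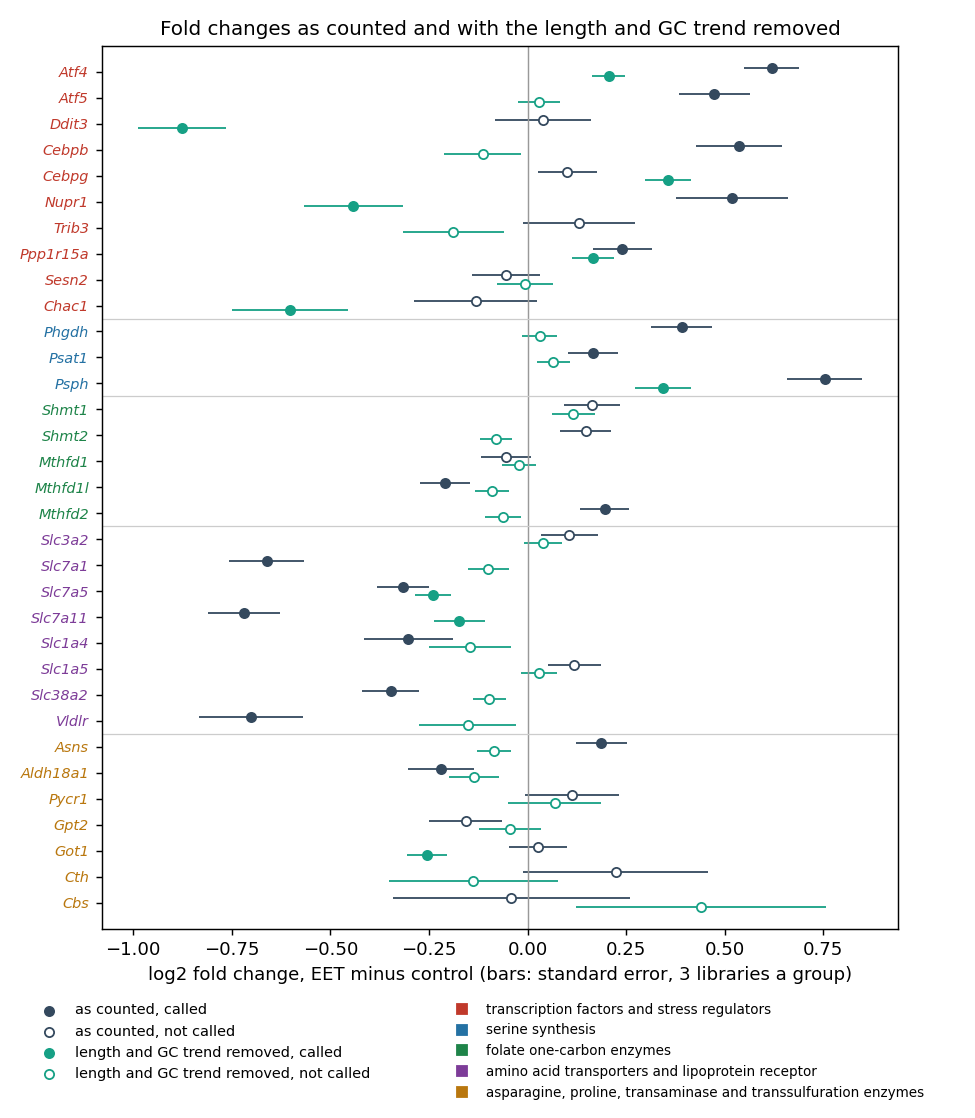
Log2 fold change of each of the 33 genes (EET minus control, 3 libraries a group) with its standard error, as counted (dark) and after removal of the length and GC trend (green); filled points passed an adjusted p of 0.05. Serine synthesis genes lie to the right of 0 and transporters mostly to the left as counted, and the green points of both groups lie nearer to 0, with Psph, Slc7a5 and Slc7a11 still filled.

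In the enzymes of asparagine, proline, transamination and transsulfuration, 1 of 7 rose and 1 fell (24.6% and 23.3% of all genes). With the trend removed 0 were higher and 1 lower (16.3% and 15.2% of all genes). Asns, asparagine synthetase, was at 199, 189 and 182 CPM in the controls and at 223, 217 and 210 CPM with EET, with no overlap. It rose by 0.19 ± 0.06 (edgeR adjusted p = 0.0269) and was at −0.08 ± 0.04 with the trend removed (adjusted p = 0.15). Leaving out control 2, control 3, EET 1 or EET 2 ended the call as counted (adjusted p = 0.0764 to 0.135). Aldh18a1, the first enzyme of proline synthesis, was at 144, 151 and 147 CPM in the controls and at 119, 116 and 145 CPM with EET. One EET library lay among the controls. Aldh18a1 fell by 0.22 (SE 0.08, edgeR adjusted p = 0.0402), a call that was lost without control 2, control 3, EET 1 or EET 2 (adjusted p = 0.099 to 0.207) and with the trend removed (−0.14, adjusted p = 0.114).

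Got1, the cytosolic aspartate transaminase, was at 88.9, 79 and 79.8 CPM in the controls and at 87.1, 82.7 and 82.5 CPM with EET. The groups overlapped and the log2 fold change was 0.03 ± 0.07 (edgeR adjusted p = 0.795). Its mRNA of 2058 bp lies where most genes were higher, and with the trend removed it was called lower, at −0.26 ± 0.05 (adjusted p = 6.74e-04). Pycr1, the last enzyme of proline synthesis, was at 8.7 to 9.29 CPM in the controls and 9.26 to 9.95 CPM with EET, and Gpt2, the mitochondrial alanine transaminase, at 25.5 to 29.2 and 23.1 to 25.8 CPM. Cth and Cbs, the enzymes that make cysteine from homocysteine, were the weakest of the 33, with 83 to 180 and 35 to 83 counts a library. Their intervals at 2 SE, −0.24 to 0.69 and −0.64 to 0.56, were the widest of the 33. None of these 4 was called in either fit, and with the trend removed Pycr1 was at 0.07, Gpt2 at −0.04, Cth at −0.14 and Cbs at 0.44.

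Compared per length (CPM per kb of mRNA, means of the controls), Atf4 was the highest of the 33 at 222, followed by Phgdh at 191, Shmt2 at 173, Psat1 at 166 and Slc38a2 at 119. Vldlr at 1.42 and Cbs at 0.278 were the lowest. In this order 17 of 32 pairs of neighbours had control libraries that overlapped, among them Phgdh and Shmt2, and Shmt2 and Psat1. Of the serine branch, Psph at 14.3 CPM per kb in the controls and 24.1 with EET stayed far below Phgdh and Psat1. Summed per length, the 10 regulators gave 360 to 395 CPM per kb in the controls and 493 to 564 with EET, of which Atf4 alone had means of 222 and 341.5. The 3 serine enzymes gave 354 to 396 and 437 to 484, the 5 folate enzymes 379 to 403 and 408 to 415, and the 7 remaining enzymes 184 to 196 and 193 to 199. The 8 transporter and receptor genes gave 438 to 442 and 389 to 402, a difference in the other direction. The groups were apart in each sum but that of the 7 remaining enzymes. These sums hold the length trend. The variation between libraries of 1 group was mostly small, with a median coefficient of variation of 5.88% over the 33 genes in the controls and 6.33% with EET, and reached 31.2% for Cth in the controls and 31.6% for Cbs with EET.

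**Figure D4:**
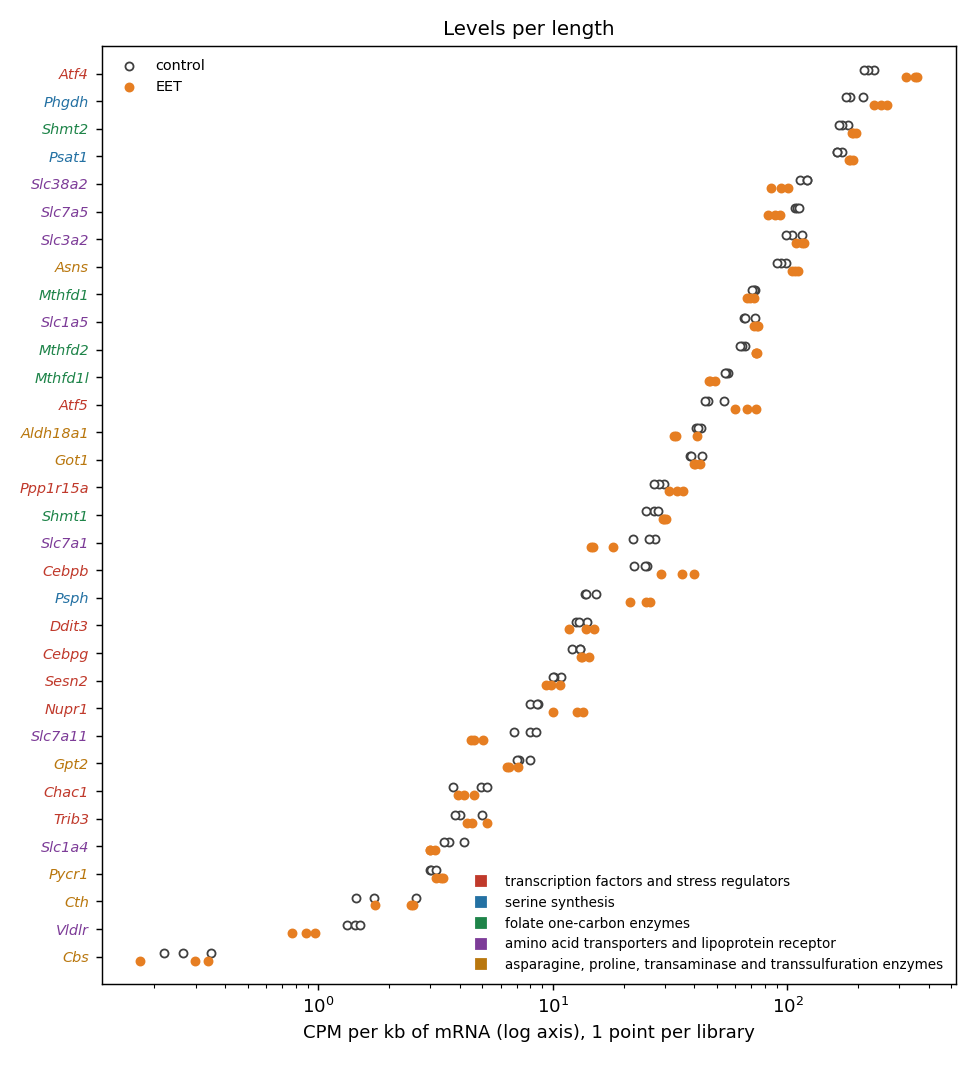
Level per length (CPM per kb of mRNA, log axis) of the 33 genes in each library, ordered by the mean of the controls; open points are controls and filled points EET libraries. Atf4, Phgdh, Shmt2 and Psat1 are at the top, and the EET points of Psph and Nupr1 lie to the right and those of Slc7a1, Slc7a11 and Vldlr to the left of their controls.

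Beyond the 33 genes, 5 lists of the same pathway gave 135 tested genes, and in each list up to 2 genes of each direction, those of smallest p, are named. The shares of all genes to read these counts against are 24.6% higher and 23.3% lower as counted, and 16.3% and 15.2% with the trend removed. Of 20 genes of the eIF2 kinases and the eIF2 and eIF2B machinery, 8 were higher and 6 lower (6 and 5 with the trend removed). Eif2s1, which encodes the phosphorylated alpha subunit of eIF2, rose from 211 ± 4.67 to 287 ± 8.52 CPM (0.44 ± 0.06, edgeR adjusted p = 4.24e-05; 0.46 with the trend removed). Eif2b2, a subunit of the exchange factor eIF2B, rose by 0.48 ± 0.09 (0.0068 with the trend removed). Eif2ak2, the double-stranded RNA kinase PKR, fell from 38.6 ± 5.77 to 17.9 ± 1.51 CPM (−1.11 ± 0.11, edgeR adjusted p = 3.82e-06; −0.91 with the trend removed). Gcn1, the partner that activates the amino acid sensor GCN2, fell by 0.59 (SE 0.07) and had no matched transcript length, so its trend was not removed. It kept its value as counted in the second fit and is among the 5 genes given as lower there. The other kinase genes, chosen after their values were seen, were Eif2ak3 (PERK), Eif2ak4 (GCN2) and Eif2ak1 (HRI). Eif2ak3 and Eif2ak4 had −0.41 and −0.27 as counted, both called lower (edgeR adjusted p = 0.00143 and 0.0195), and Eif2ak1 had −0.08 (adjusted p = 0.444). With the trend removed these 3 were at −0.15, 0.10 and 0.15, and none of them was called.

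Of 32 other ATF4 and CHOP targets, 9 were higher and 13 lower (6 and 11, with a median of −0.12, once the trend was removed). Eif4ebp1, whose protein 4E-BP1 represses cap-dependent translation, rose from 58.6 ± 4.32 to 104.8 ± 19.1 CPM (0.84 ± 0.11, edgeR adjusted p = 3.36e-05), and Map1lc3b, the autophagy protein gene, rose by 0.42 ± 0.07. Both were also called higher with the trend removed, at 0.56 and 0.31. Aldh1l2, a mitochondrial folate enzyme, fell from 19.5 ± 3.03 to 7.9 ± 0.61 CPM (−1.30 ± 0.13, edgeR adjusted p = 3.31e-06), and Fam129a fell by 0.81 (SE 0.11); they were at −0.84 and −0.32 with the trend removed, both called lower.

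Of 26 other folate and one-carbon genes, 10 were higher and 6 lower (5 and 4 with the trend removed). Gcsh, which carries glycine through the glycine cleavage system, rose from 58.9 ± 2.04 to 109.8 ± 8.2 CPM (0.90 ± 0.08, edgeR adjusted p = 1.19e-06; 0.36 with the trend removed). Tyms, thymidylate synthase, rose by 0.70 ± 0.08 and was at 0.72 with the trend removed. Mtr, methionine synthase, and Pfas, an enzyme of purine synthesis, fell by 0.63 and 0.41, and neither was called with the trend removed (−0.04 and 0.06).

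Of 27 other amino acid transporters 1 was higher and 12 were lower as counted, and with the trend removed 6 were higher, 2 lower, where all genes gave 24.6% and 23.3%, then 16.3% and 15.2%. Slc6a6, the taurine carrier, fell by 0.66 (SE 0.08; −0.19 with the trend removed, called lower), and Slc38a1, a glutamine carrier, by 0.51 (SE 0.07; 0.06 with the trend removed, not called). Slc43a1, which carries large neutral amino acids as Slc7a5 does, was the single higher gene as counted, by 0.34 ± 0.11 (edgeR adjusted p = 0.0185), and was at 0.34 ± 0.10 with the trend removed (adjusted p = 0.0144). Of 30 other enzymes of amino acid synthesis and breakdown, 15 were higher and 2 lower as counted, and with the trend removed 5 were higher and 4 lower, where 16.3% and 15.2% of all genes were. Odc1, the first enzyme of polyamine synthesis, rose from 1388 ± 60.3 to 2101 ± 96.8 CPM (0.60 ± 0.07, edgeR adjusted p = 6.73e-06; 0.36 with the trend removed). Gclc, the catalytic subunit of the first enzyme of glutathione synthesis, fell by 0.20 (SE 0.07; −0.14 with the trend removed, called lower).

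The sources used here do not give the strand setting of the counting. Exons of Atf5, Ddit3, Cebpb, Cebpg, Ppp1r15a, Psph, Shmt1, Shmt2 and Mthfd1 overlap those of neighbours on the other strand. Were strand ignored, the overlap could alter the counts of these genes, in a direction that was not tested. Of these Atf5, Cebpb, Ppp1r15a and Psph are among the genes that rose, so their levels carry that uncertainty.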

How the data were processed

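Poly(A) RNA of 3 control and 3 EET samples was sequenced as paired reads after dUTP marking of the second strand, per the labels' protocols. The values deposited by the authors are raw whole-number counts for each gene symbol. Per the submitters' processing notes, FastQC, cutadapt and DESeq2 were used with the build GRCm38; aligner, counter, strand setting and annotation release were not given in the sources used here. Of 55494 rows, 25226 held no count. Groups and replicate numbers came from the sample titles.

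Counts were fitted with edgeR 4.0.16 in R 4.3.3 (TMM scaling after filterByExpr, then robust glmQLFit and glmQLFTest), 3 EET against 3 control libraries without a block; p-values were Benjamini-Hochberg adjusted over 16097 genes and calls made at 0.05. CPM are TMM scaled. "Rose" and "fell" are used of calls in this fit. GENCODE M21 (GRCm38), which matched 53365 rows by symbol, gave coordinates, GC content and mRNA length, the latter of the longest protein-coding transcript. Which transcripts the cells express was not tested, so length classes, trend-removed values and CPM per kb rest on that choice. Trend removal used a robust loess (span 0.3, degree 2) of each library's deviation on log2 length and GC, entered as an edgeR offset for 13802 protein-coding genes; 2295 genes without one kept their value. The pipeline was tested on simulated data.

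The 33 genes, the pathway lists and the trend removal were chosen with earlier results of these data known. Named pathway genes are the 2 higher and 2 lower with the smallest p per list; some that this rule selects are not reported here. Tried as alternatives were DESeq2 1.42.0, voom in limma 3.58.1, scaling by RLE or by library totals, the low-count filter dropped or set to over 5 CPM in 3 libraries, a replicate block, counts divided by 2 and leaving out libraries; leaving out control 1 with EET 3, and each library in the trend-removed fit, was chosen after seeing the data. The chi-square per gene of any pair of libraries was at least 5.92, above sampling noise.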

Additional observations from a re-analysis of the deposited data

How the results depend on the processing

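As counted, 11 calls (Atf4, Atf5, Cebpb, Nupr1, Phgdh, Psph, Slc7a1, Slc7a5, Slc7a11, Slc38a2 and Vldlr) were kept under all 15 alternatives that leave the length trend in. Of the 33 genes, 6 were higher with library totals, and 4 with the trend removed, with and without the replicate block; the median was then −0.081 in both. Psat1, Slc1a4 and Asns lost their calls without a filter on low counts, and Psat1 with RLE scaling. Leaving out libraries gave 6 to 15 higher and 5 to 9 lower genes, the top of both being the fit without control 1 and EET 3 together, the lowest those without EET 2 and, for the higher genes, also without control 2 or control 3. Replicate numbers did not pair the libraries (correlations of same-numbered deviations −0.0035, −0.050 and 0.0089); with them as a block 12 were higher and 8 lower, Shmt1 and Shmt2 being added, and 4 and 7 with the trend removed as well.

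Values that changed sign with the trend removed were, without and with the replicate block, −0.88 and −0.87 for Ddit3, −0.11 and −0.11 for Cebpb, −0.44 and −0.44 for Nupr1, −0.19 and −0.19 for Trib3, −0.081 and −0.081 for Shmt2, −0.063 and −0.063 for Mthfd2, −0.084 and −0.084 for Asns, −0.26 and −0.25 for Got1, −0.14 and −0.12 for Cth, and 0.44 and 0.42 for Cbs. The ratios of Mthfd2 to Mthfd1 and of Slc7a11 to Slc7a5 turned to −0.040 and 0.067. Library totals turned Ddit3 to −0.032 and Got1 to −0.043. Leaving out libraries, the range was −0.040 to 0.13 for Ddit3, −0.0060 to 0.083 for Got1, −0.24 to 0.38 for Cbs, −0.11 to 0.012 for Sesn2, and −0.062 to 0.0076 for the ratio of Shmt2 to Shmt1. With the trend removed it was −0.011 to 0.064 for Atf5, −0.054 to 0.039 for Sesn2, −0.082 to 0.018 for Gpt2 and −0.29 to 0.11 for Cth. The cause was not tested.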
